A study of Mus musculus with 10 samples.

Results

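The collagen chain genes are the 44 genes of the array whose symbol names an alpha chain of a collagen type, out of 22180 genes measured with a transcript cluster of their own. They were chosen by symbol alone among clusters with exactly 1 gene symbol in the platform annotation, and where a gene had more than 1 such cluster the one with the highest mean over the 10 arrays was kept. Transcript levels had been measured on Affymetrix arrays in mouse cells of 3 kinds: hepatocyte-like cells made by differentiating embryonic stem cells (3 arrays), hepatocytes from adult liver (3 arrays) and undifferentiated embryonic stem cells (4 arrays). All 10 samples were labelled with 1 mouse strain, which bears the transgene Tg(CAG-luc, GFP)L2G85Chco on a C.FVB background (laboratory code FathJ), so that luciferase and GFP are driven by the ubiquitous CAG promoter in every group. All carried a label of under passage 20, the adult hepatocytes included. The labels give neither treatments, days of differentiation, ages nor sexes, and they do not say whether the stem cells were 1 clone or whether hepatocytes of several animals were pooled. The replicates are labelled as biological, but nothing ties them to separate cultures or animals, so the p-values reflect only how much these samples vary, which may be technical.

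Collagens are secreted or membrane proteins in which 3 alpha chains wind into a triple helix built of glycine-led repeats. Fibrillar collagens form the cables of connective tissue, type IV collagens form the mesh of basement membranes, and the remaining classes decorate fibrils, link them to cells or span cell membranes. In the healthy liver the interstitial fibrils are made mainly by stellate cells and portal fibroblasts, and both fibrillar and type IV chains accumulate in fibrosis. Hepatocytes themselves are known as a source of collagen XVIII, the precursor of endostatin.

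The 3 kinds of cell differed in hepatic and pluripotency genes, which served as a check of the labels. All values are log2 levels as deposited. The median of an array was 4.91 to 5.07, and precision is limited by how few arrays there are. The mean level of 15 hepatocyte markers was 5.48, 5.87 and 6.88 in hepatocyte-like replicates 1, 2 and 3, against 11.85 to 12.01 in adult hepatocytes and 4.78 to 4.90 in embryonic stem cells. In hepatocyte-like cells 5 of 15 rose against embryonic stem cells, and 14 of 15 were lower than in adult hepatocytes. Of 12 embryonic stem cell markers 11 fell against embryonic stem cells. Over all genes 8.61% were higher and 7.35% lower than in embryonic stem cells, and 9.12% were lower than in adult hepatocytes. Hepatocyte-like replicate 3 stood apart from the other two, with albumin (Alb) at 10.80 against 4.85 and 5.14 in replicates 1 and 2 and the pluripotency factor Nanog at 7.12 against 5.08 and 5.09, so that collagen values are given per array and without it where they turn on it. These are bulk RNA measurements, in which fewer cells of a type and less RNA per cell cannot be told apart.

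Collagen genes that differed were mostly higher in hepatocyte-like cells. A gene is called here, and said to have risen or fallen, when limma's adjusted p (Benjamini-Hochberg over all 22180 genes) was under 0.05 and the log2 difference at least 1. Between hepatocyte-like cells and embryonic stem cells 13 of 44 collagen genes rose and 0 fell, beside 16.0% of all genes called, 8.61% higher and 7.35% lower. The median difference of the 44 genes was 0.38, against -0.01 over all genes. Between hepatocyte-like cells and adult hepatocytes 11 of 44 were higher and 1 lower, beside 23.0% of all genes called, 13.9% higher and 9.12% lower, with a median of 0.09 against -0.04. Between adult hepatocytes and embryonic stem cells 2 of 44 collagen genes were higher and 0 lower, beside 26.6% of all genes called, 11.0% higher and 15.6% lower, with a median of 0.28 against 0.05. The 3 comparisons share samples, so their counts are not independent of each other. Of the 44 genes, 19 had all 3 group means under 6 and 12 had a group mean of 7 or more, and all 44 were tested.

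**Figure D1:**
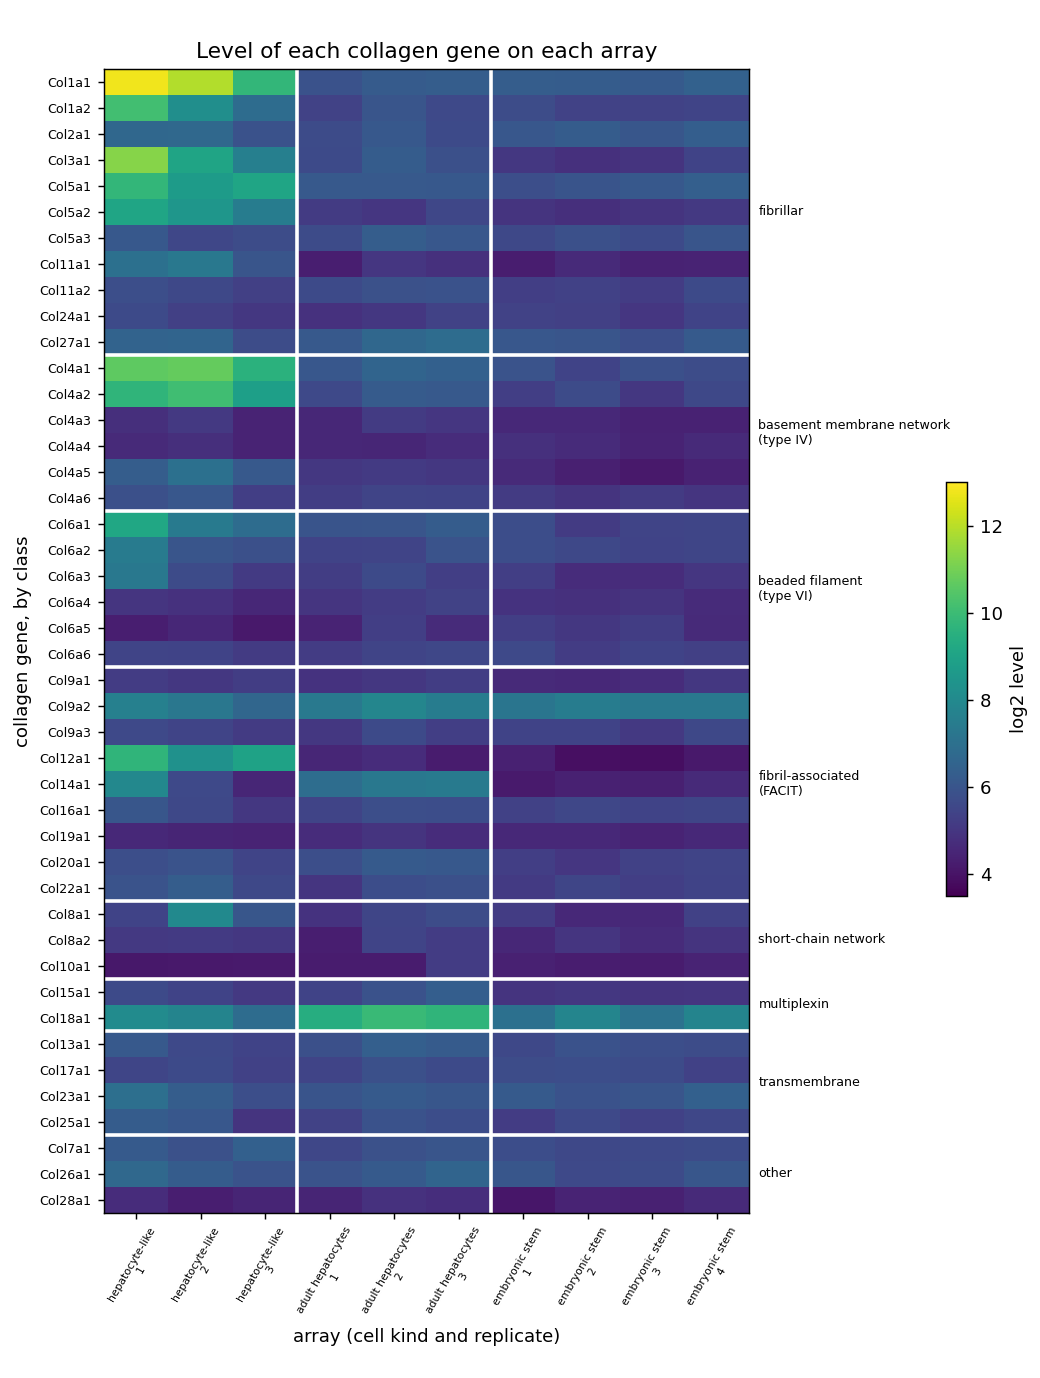
Log2 level (colour) of the 44 collagen genes (rows, grouped by class) on the 10 arrays (columns, 3 of hepatocyte-like cells, 3 of adult hepatocytes and 4 of embryonic stem cells). Bright cells lie mainly in the hepatocyte-like columns for fibrillar and type IV genes and Col12a1, with Col1a1 at 12.80 in replicate 1, while Col18a1 is brightest in adult hepatocytes, at 9.43 to 9.94.

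The fibrillar class held the largest share of these changes. Of 11 fibrillar genes 6 rose in hepatocyte-like cells against embryonic stem cells, with a median difference of 2.33 over the class, and the same 6 were higher than in adult hepatocytes, with a class median of 2.06. These counts were again 6 and 6 without any 1 of the 3 hepatocyte-like arrays, an alternative chosen after seeing the data. The 6 were both chains of type I, the single chain of type III, the type V chains Col5a1 and Col5a2 and the type XI chain Col11a1.

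Type I collagen, the main fibril of bone, skin and scar, is built from the chains encoded by Col1a1 and Col1a2. Col1a1 stood at 12.80, 11.92 and 9.80 in hepatocyte-like replicates 1, 2 and 3, against 5.91, 6.24 and 6.32 in adult hepatocytes and 6.31, 6.27, 6.18 and 6.44 in embryonic stem cells. All 3 hepatocyte-like arrays lay above the 7 others, and among them replicate 1 was high and replicate 3 low. The gene rose by 5.21 ± 0.50 (log2 difference ± SE) relative to embryonic stem cells (37.0-fold, limma, adjusted p = 6.62e-06), and by 5.35 ± 0.53 over adult hepatocytes (adjusted p = 4.03e-06). Without hepatocyte-like replicate 1 these differences were 4.56 and 4.70, and without replicate 3 they were 6.06 and 6.20. Its partner Col1a2 read 10.14, 8.21 and 6.84 in hepatocyte-like cells, against 5.39, 6.02 and 5.60 in adult hepatocytes and 5.69, 5.37, 5.38 and 5.44 in embryonic stem cells. The hepatocyte-like arrays again lay above all others, adult hepatocytes and embryonic stem cells overlapped, and the order of the 3 hepatocyte-like arrays was that of Col1a1. Col1a2 rose by 2.92 ± 0.54 over embryonic stem cells (7.58-fold, adjusted p = 0.00113), and the difference was 2.05 without hepatocyte-like replicate 1 and 3.70 without replicate 3. A second, dimmer cluster of Col1a2 differed by 1.44 in the same direction, and the mean of both clusters by 2.18.

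Type III collagen, which co-assembles with type I in distensible tissues and in early scar, showed the widest spread among the hepatocyte-like arrays. Col3a1 read 11.27, 9.06 and 7.62 there, against 5.62, 6.27 and 5.81 in adult hepatocytes and 5.03, 4.84, 4.94 and 5.41 in embryonic stem cells. The range within the hepatocyte-like cells, 3.66, was the largest among the 13 collagens that rose, yet the lowest of the 3 arrays was still above every other array. The difference was 4.26 ± 0.60 over embryonic stem cells (19.2-fold, adjusted p = 1.52e-04) and 3.42 ± 0.64 over adult hepatocytes (adjusted p = 8.91e-04). Without hepatocyte-like replicate 1 they were 3.29 and 2.44, and without replicate 3 they were 5.11 and 4.27.

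Type V chains, which nucleate type I fibrils and limit their diameter, were steadier. Col5a1 stood at 9.79, 8.73 and 9.10 in hepatocyte-like cells, against 6.14, 6.17 and 6.10 in adult hepatocytes and 5.78, 5.98, 6.11 and 6.38 in embryonic stem cells. Col5a2 stood at 9.10, 8.48 and 7.50, against 5.16, 4.99 and 5.51 in adult hepatocytes and 4.94, 4.77, 4.91 and 5.09 in embryonic stem cells. For both genes every hepatocyte-like array exceeded all others, and replicate 3 was the lowest for Col5a2 but not for Col5a1. Col5a1 rose by 3.14 ± 0.23 over embryonic stem cells (adjusted p = 7.03e-07) and Col5a2 by 3.43 ± 0.29 (adjusted p = 2.72e-06). The remaining type V chain, Col5a3, did not pass the test, at 5.79 ± 0.30 in hepatocyte-like cells, 6.02 ± 0.33 in adult hepatocytes and 5.75 ± 0.20 in embryonic stem cells (mean ± SD, n = 3, 3 and 4), with a 95% interval of -0.40 to 0.48 for the difference from embryonic stem cells. A second cluster of Col5a1 disagreed with the one kept, with a difference of 0.29, and the mean of both clusters rose by 1.71.

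The cartilage fibril chains were split. Col11a1, whose product nucleates type II fibrils and is also made outside cartilage, read 6.99, 7.31 and 6.01 in hepatocyte-like cells, against 4.31, 5.002 and 4.82 in adult hepatocytes and 4.27, 4.63, 4.42 and 4.46 in embryonic stem cells. It was above all other arrays in each hepatocyte-like sample and rose by 2.33 ± 0.27 over embryonic stem cells (5.01-fold, adjusted p = 3.89e-05) and by 2.06 ± 0.29 over adult hepatocytes (adjusted p = 1.03e-04). Its partners in cartilage fibrils were not called. Col2a1, the main chain of cartilage, stood at 6.68, 6.71 and 5.90 in hepatocyte-like cells, against 5.66, 6.13 and 5.63 in adult hepatocytes and 6.08, 6.27, 6.03 and 6.34 in embryonic stem cells, so that the groups overlapped. The difference of Col2a1 was 0.25 ± 0.22 against embryonic stem cells (adjusted p = 0.474), and that of Col11a2 was 0.19 ± 0.17 (adjusted p = 0.503). Of 10 chondrocyte markers other than collagens 2 rose in hepatocyte-like against embryonic stem cells, the link protein gene Hapln1 (3.94 ± 0.53) and the transcription factor Sox9 (2.82 ± 0.47). The cartilage matrix genes Acan, Comp and Matn1 had mean levels of 4.49, 4.82 and 4.28 in hepatocyte-like cells, against 4.92, 4.93 and 4.75 in embryonic stem cells. In adult hepatocytes 4 of the 10 rose over embryonic stem cells, Sox6 (2.32 ± 0.24), Sox5 (1.61 ± 0.24), Sox9 (1.28 ± 0.47) and Cnmd (1.17 ± 0.21). Over all genes 8.61% were higher in the first comparison and 11.0% in the second. Against adult hepatocytes Sox9 and Hapln1 were higher in hepatocyte-like cells, and Sox6 and Cnmd lower. The minor fibrillar chains Col24a1 and Col27a1 were at 5.33 ± 0.30 and 6.27 ± 0.48 in hepatocyte-like cells, against 5.28 ± 0.18 and 6.01 ± 0.18 in embryonic stem cells, and neither passed in any of the 3 comparisons.

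**Figure D2:**
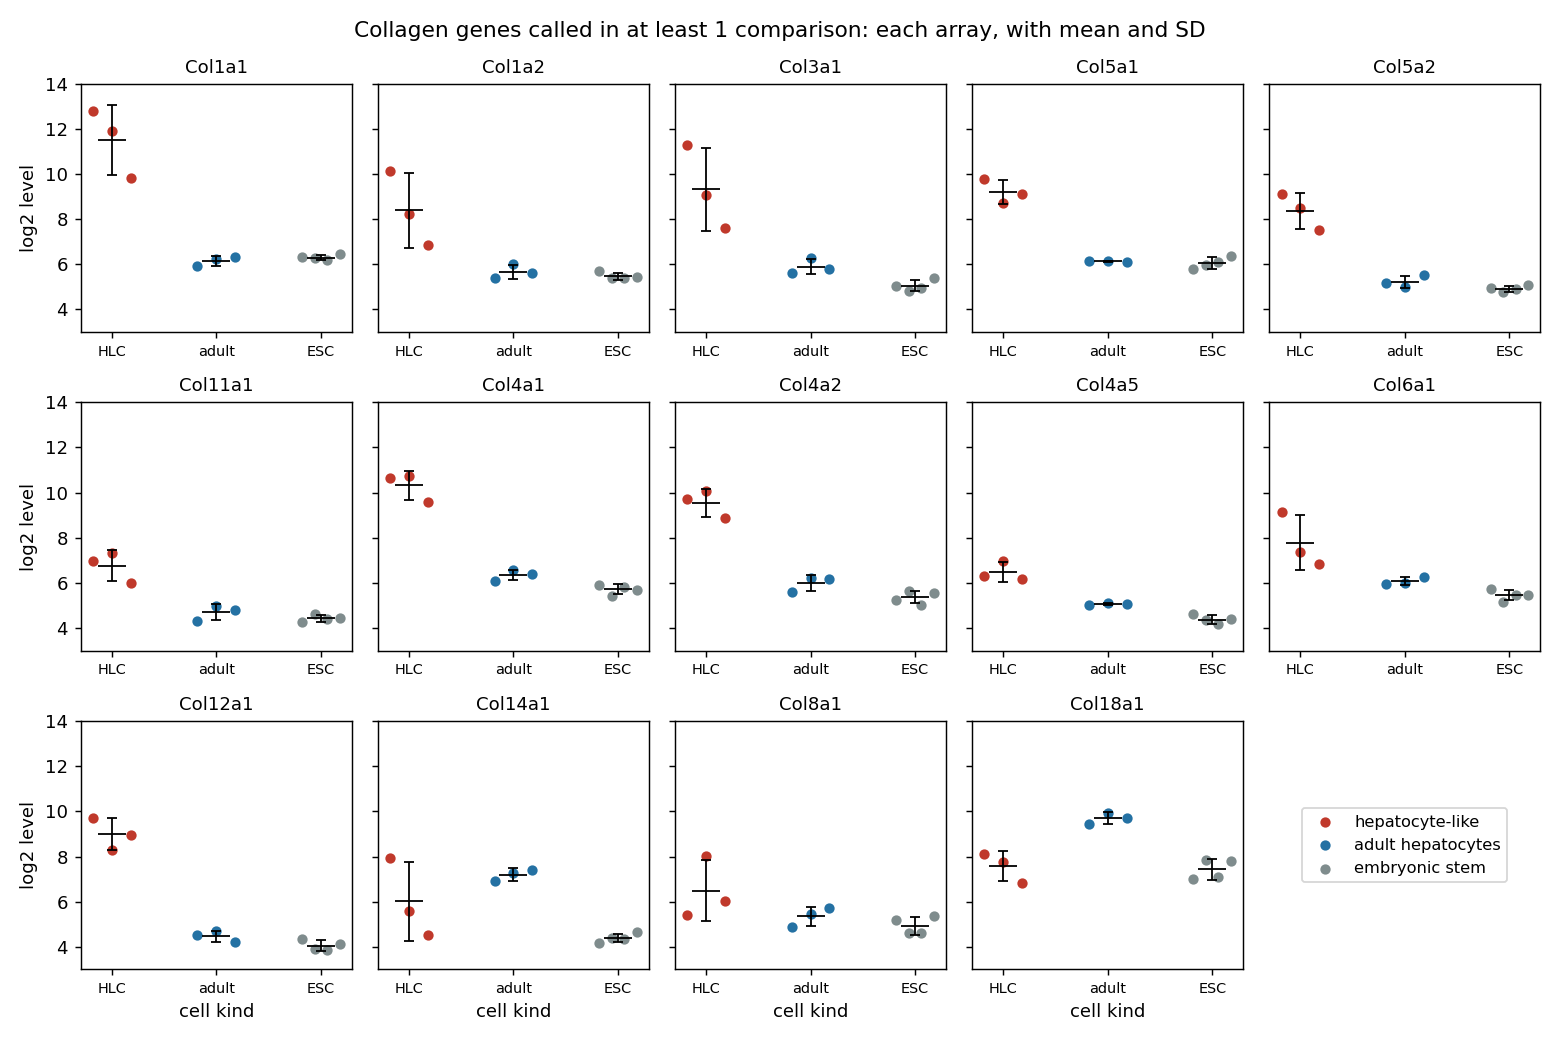
Log2 level on each array (points) with mean and SD (bars) for the 14 collagen genes called in at least 1 of 3 comparisons, in hepatocyte-like cells (HLC, n = 3), adult hepatocytes (adult, n = 3) and embryonic stem cells (ESC, n = 4). The hepatocyte-like points of Col1a1, Col1a2, Col3a1 and Col6a1 spread widely but lie above all other arrays, those of Col14a1 overlap both other groups, those of Col8a1 overlap adult hepatocytes, and Col18a1 is highest in adult hepatocytes.

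Promoters of the 2 fibrillar chains below are shown because both genes rose in the same cells in the same order of arrays while their start regions differ in composition. The windows are 300 bases that span the annotated start, most of them upstream, and come from RefSeq on GRCm38.p6, where 35 of the 44 collagens were matched. Capitals mark CCAAT or its reverse complement ATTGG, the box read by NF-Y, and TATAAA or its reverse complement TTTATA. Col1a2 is at chr6:4505368-4505667 on the plus strand and Col3a1 at chr1:45311288-45311587 on the plus strand.
Col1a2: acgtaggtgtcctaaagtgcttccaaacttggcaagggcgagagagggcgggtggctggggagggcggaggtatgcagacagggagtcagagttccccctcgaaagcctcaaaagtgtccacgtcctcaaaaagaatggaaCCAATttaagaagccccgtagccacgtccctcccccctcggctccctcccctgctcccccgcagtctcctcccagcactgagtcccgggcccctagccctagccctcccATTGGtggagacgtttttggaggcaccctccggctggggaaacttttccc
Col3a1: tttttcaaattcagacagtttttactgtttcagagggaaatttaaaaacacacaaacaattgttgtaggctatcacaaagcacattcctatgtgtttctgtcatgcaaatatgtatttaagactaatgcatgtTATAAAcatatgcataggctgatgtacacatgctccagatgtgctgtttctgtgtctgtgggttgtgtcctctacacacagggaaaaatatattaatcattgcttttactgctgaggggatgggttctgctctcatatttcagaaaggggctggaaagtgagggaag
The Col1a2 window held 2 CCAAT boxes, at positions -109 and 0 relative to the annotated start, no TATAAA and 61.0% G and C. The Col3a1 window held 1 TATAAA at -117, no CCAAT and 37.7% G and C, against a median of 52.7% over all 32851 windows. CCAAT on either strand was in 37.4% of all windows, in 12 of 35 collagen windows and in 5 of 9 windows of collagens that rose in hepatocyte-like cells over embryonic stem cells. TATAAA on either strand was in 13.6% of all windows and in 5 of 35 collagen windows. These matches describe the letters of the windows only.

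Type IV collagen, the network of basement membranes, followed with 3 of 6 chains higher in hepatocyte-like cells than in embryonic stem cells and the same 3 also called higher against adult hepatocytes. The class median was 1.38 in the first comparison and 0.89 in the other, and the count was again 3 without any 1 of the hepatocyte-like arrays. Col4a1 stood at 10.63, 10.74 and 9.58 in hepatocyte-like cells, against 6.10, 6.56 and 6.41 in adult hepatocytes and 5.92, 5.42, 5.83 and 5.71 in embryonic stem cells. Its heterotrimer partner Col4a2 stood at 9.73, 10.08 and 8.87, against 5.60, 6.23 and 6.17 in adult hepatocytes and 5.26, 5.65, 5.04 and 5.55 in embryonic stem cells. For both chains the hepatocyte-like arrays were far above the 7 others, with replicate 2 the highest and replicate 3 the lowest. Against adult hepatocytes Col4a1 was higher by 3.96 ± 0.28 (15.6-fold, adjusted p = 1.33e-07) and Col4a2 by 3.56 ± 0.29 (11.8-fold, adjusted p = 6.67e-07). Adult hepatocytes and embryonic stem cells were not called apart, at 0.64 ± 0.26 for Col4a1 (adjusted p = 0.0684) and 0.62 ± 0.27 for Col4a2 (adjusted p = 0.0919). Values of these 2 groups nevertheless did not overlap for Col4a1, with adult hepatocytes higher, while for Col4a2 they did.

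Col4a1 and Col4a2 lie head to head and are known to share a bidirectional promoter, shown here because both chains moved by nearly the same amount. The Col4a1 window is at chr8:11312777-11313076 on the minus strand and the Col4a2 window at chr8:11312555-11312854 on the plus strand, each printed along its own gene with capitals as above.
Col4a1: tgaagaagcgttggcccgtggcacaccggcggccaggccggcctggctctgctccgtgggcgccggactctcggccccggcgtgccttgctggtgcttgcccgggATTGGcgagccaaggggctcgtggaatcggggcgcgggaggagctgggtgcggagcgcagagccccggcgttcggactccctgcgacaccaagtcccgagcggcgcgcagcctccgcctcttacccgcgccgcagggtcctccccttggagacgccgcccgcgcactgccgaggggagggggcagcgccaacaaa
Col4a2: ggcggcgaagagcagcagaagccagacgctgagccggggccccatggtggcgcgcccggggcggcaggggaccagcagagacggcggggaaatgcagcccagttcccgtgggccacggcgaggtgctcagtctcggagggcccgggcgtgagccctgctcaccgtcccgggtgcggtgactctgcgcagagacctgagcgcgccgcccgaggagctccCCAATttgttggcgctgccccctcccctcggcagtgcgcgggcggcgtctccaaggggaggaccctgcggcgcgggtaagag
The 2 annotated starts are 21 bases apart and the windows share 78 bases. Col4a1 starts at 11312826 on the minus strand and Col4a2 at 11312805 on the plus strand, so the annotated transcripts overlap at their starts. Sequence upstream of 1 gene's start is thus mostly downstream of the other's. Each window held 1 CCAAT box, at -145 for Col4a1 and at -32 for Col4a2, and no TATAAA. Both boxes lie downstream of the other gene's annotated start. Of the bases of the 2 windows 74.0% and 73.7% were G or C. GGGCGG, the core of a GC box, was in both windows on 1 strand or the other, as in 22 of 35 collagen windows and 35.7% of all windows. The Col4a1 window held 1 match, at position 9, and the Col4a2 window 3. The Col4a1 match lies in the shared bases and is the same site as the Col4a2 match at position 7.

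The other type IV chains replace these in specialised membranes such as those of kidney, lung and eye. Col4a5 read 6.30, 6.99 and 6.17 in hepatocyte-like cells, against 5.04, 5.10 and 5.06 in adult hepatocytes and 4.62, 4.34, 4.16 and 4.39 in embryonic stem cells, with no overlap between any of the groups. It rose by 2.10 ± 0.20 over embryonic stem cells (4.30-fold, adjusted p = 6.49e-06) and by 1.42 ± 0.21 over adult hepatocytes (adjusted p = 1.63e-04). Col4a6, its head-to-head neighbour on the X chromosome, stood at 5.80, 6.07 and 5.25 in hepatocyte-like cells, against 5.16, 4.94, 5.15 and 4.98 in embryonic stem cells, and its difference of 0.65 ± 0.19 had an adjusted p of 0.0208 in limma but did not reach a log2 difference of 1. Col4a3 and Col4a4 had group means between 4.50 and 4.92 and were not called in any comparison, with 95% intervals of -0.13 to 0.68 and -0.36 to 0.30 for hepatocyte-like against embryonic stem cells. For scale, hepatocyte markers in embryonic stem cells had a median level of 4.78 (range 3.81 to 6.50), and no background measurement was used here, so a low level of such genes gives no bound on the transcript.

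Among type VI chains, which form beaded filaments around cells, 1 of 6 was called. Col6a1 read 9.14, 7.37 and 6.84 in hepatocyte-like cells, against 5.96, 6.01 and 6.27 in adult hepatocytes and 5.74, 5.17, 5.45 and 5.48 in embryonic stem cells. No hepatocyte-like array overlapped the other groups, although replicate 1 lay well above replicates 2 and 3. The gene rose by 2.33 ± 0.40 over embryonic stem cells (5.01-fold, adjusted p = 7.75e-04) and by 1.71 ± 0.43 over adult hepatocytes (adjusted p = 0.00724). Without hepatocyte-like replicate 1 these were 1.65 and 1.03, and with the gene's 2 clusters averaged they were 1.33 and 0.85, the second of which was not called. Its partners Col6a2 and Col6a3 read 7.46, 6.01 and 5.82, and 7.29, 5.67 and 5.11, in hepatocyte-like cells, against 5.43 to 5.76 and 4.70 to 5.26 in embryonic stem cells. For these 2 chains replicate 1 was high and the others lay at or near the embryonic stem cells. The differences were 0.87 ± 0.32 (adjusted p = 0.0614) for Col6a2 and 1.10 ± 0.39 (adjusted p = 0.0526) for Col6a3. Without hepatocyte-like replicate 3 both were called, at 1.18 (adjusted p = 0.0181) and 1.56 (adjusted p = 0.00642), and Col6a2 also without replicate 2, at 1.08 (adjusted p = 0.0449). With all arrays kept, both were called with array weights, and Col6a3 also under a trended and robust variance model. Col6a4, Col6a5 and Col6a6, alternatives to the alpha 3 chain, had no group mean above 5.39. Of these Col6a5 was lower in hepatocyte-like cells than in embryonic stem cells by 0.70 on the log2 scale (adjusted p = 0.0275), short of a difference of 1.

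Fibril-associated collagens sit on the surface of fibrils. Of 9 such genes 2 rose over embryonic stem cells, and the class median was 0.41. Col12a1, whose product bridges type I fibrils and is abundant where matrix bears load, had 9.71, 8.31 and 8.96 in hepatocyte-like cells, against 4.52, 4.70 and 4.22 in adult hepatocytes and 4.36, 3.89, 3.85 and 4.13 in embryonic stem cells. The 3 hepatocyte-like arrays were above the others by more than 3 log2 units. Its rise was 4.93 ± 0.28 relative to embryonic stem cells (30.6-fold, adjusted p = 8.17e-08) and 4.51 ± 0.30 relative to adult hepatocytes (22.8-fold, adjusted p = 6.59e-08). The related Col14a1 behaved otherwise: it read 7.93, 5.58 and 4.53 in hepatocyte-like cells, against 6.90, 7.29 and 7.42 in adult hepatocytes and 4.18, 4.38, 4.34 and 4.64 in embryonic stem cells. Hepatocyte-like replicate 1 was above the adult hepatocytes, and replicate 3 was within the range of the embryonic stem cells. Adult hepatocytes had 2.82 ± 0.56 more than embryonic stem cells (7.04-fold, adjusted p = 0.00110). Hepatocyte-like cells differed from embryonic stem cells by 1.63 ± 0.56 (adjusted p = 0.0457), but that call was lost under 13 of 19 alternatives. The value was 0.67 (adjusted p = 0.0973) without hepatocyte-like replicate 1 and 1.84 (adjusted p = 0.0591) without replicate 2, while without replicate 3 it was 2.37 and called (adjusted p = 0.00255). Against adult hepatocytes the difference of -1.19 ± 0.60 was not called (adjusted p = 0.151, 95% interval -2.49 to 0.11), but it was without hepatocyte-like replicate 1, at -2.15 (adjusted p = 8.87e-05).

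The cartilage chains of type IX, Col9a1, Col9a2 and Col9a3, differed by 0.41, -0.15 and 0.02 between hepatocyte-like and embryonic stem cells, and none was called. Col16a1, Col19a1, Col20a1 and Col22a1 had differences of -0.05 to 0.60 in the same comparison, also without a call. Col20a1 differed between adult hepatocytes and embryonic stem cells by 0.76 ± 0.18 (adjusted p = 0.00351), which is under a log2 difference of 1.

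Among short-chain and multiplexin collagens Col8a1 and Col18a1 were called, and no transmembrane or remaining collagen was. Col8a1, a short-chain collagen of vessel walls, read 5.42, 8.002 and 6.03 in hepatocyte-like cells, against 4.90, 5.47 and 5.71 in adult hepatocytes and 5.18, 4.61, 4.60 and 5.35 in embryonic stem cells. Only hepatocyte-like replicate 2 was far above the other arrays of the study. The rise of 1.55 ± 0.48 over embryonic stem cells (adjusted p = 0.0264) was 0.79 without that array (adjusted p = 0.0751). It was also not called without embryonic stem cell replicate 2 or 3, nor with only the 2 groups compared. Col8a2 and Col10a1, a chain of hypertrophic cartilage, were not called in any comparison.

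Col18a1, the precursor of endostatin and a heparan sulfate proteoglycan of basement membranes, was the 1 collagen called lower in hepatocyte-like cells against adult hepatocytes. It read 8.10, 7.78 and 6.85 in hepatocyte-like cells, against 9.43, 9.94 and 9.72 in adult hepatocytes and 7.003, 7.83, 7.07 and 7.80 in embryonic stem cells. Adult hepatocytes lay above all 7 other arrays, and hepatocyte-like and embryonic stem cells overlapped. Hepatocyte-like cells had 2.12 less than adult hepatocytes on the log2 scale (SE 0.32, a 4.36-fold difference, adjusted p = 1.73e-04), and adult hepatocytes 2.27 ± 0.30 more than embryonic stem cells (adjusted p = 3.87e-05). Between hepatocyte-like and embryonic stem cells the difference was 0.15 ± 0.30 (adjusted p = 0.795, 95% interval -0.51 to 0.80). The other multiplexin, Col15a1, also of basement membrane zones, stood at 5.43, 5.90 and 6.34 in adult hepatocytes, against 4.92, 5.05, 4.91 and 4.97 in embryonic stem cells. Those groups did not overlap and differed by 0.93 ± 0.21 (adjusted p = 0.00277), short of a log2 difference of 1, and the gene was called without adult hepatocyte replicate 1, at 1.16.

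Of the transmembrane collagens Col13a1, Col17a1, Col23a1 and Col25a1 none was called, with differences of -0.13 to 0.34 between hepatocyte-like and embryonic stem cells. Col7a1, the chain of anchoring fibrils under epithelia, differed by 0.50 ± 0.17 between hepatocyte-like and embryonic stem cells (adjusted p = 0.0485), below a log2 difference of 1. Col26a1 and Col28a1 differed by 0.46 and 0.09 and did not pass.

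**Figure D3:**
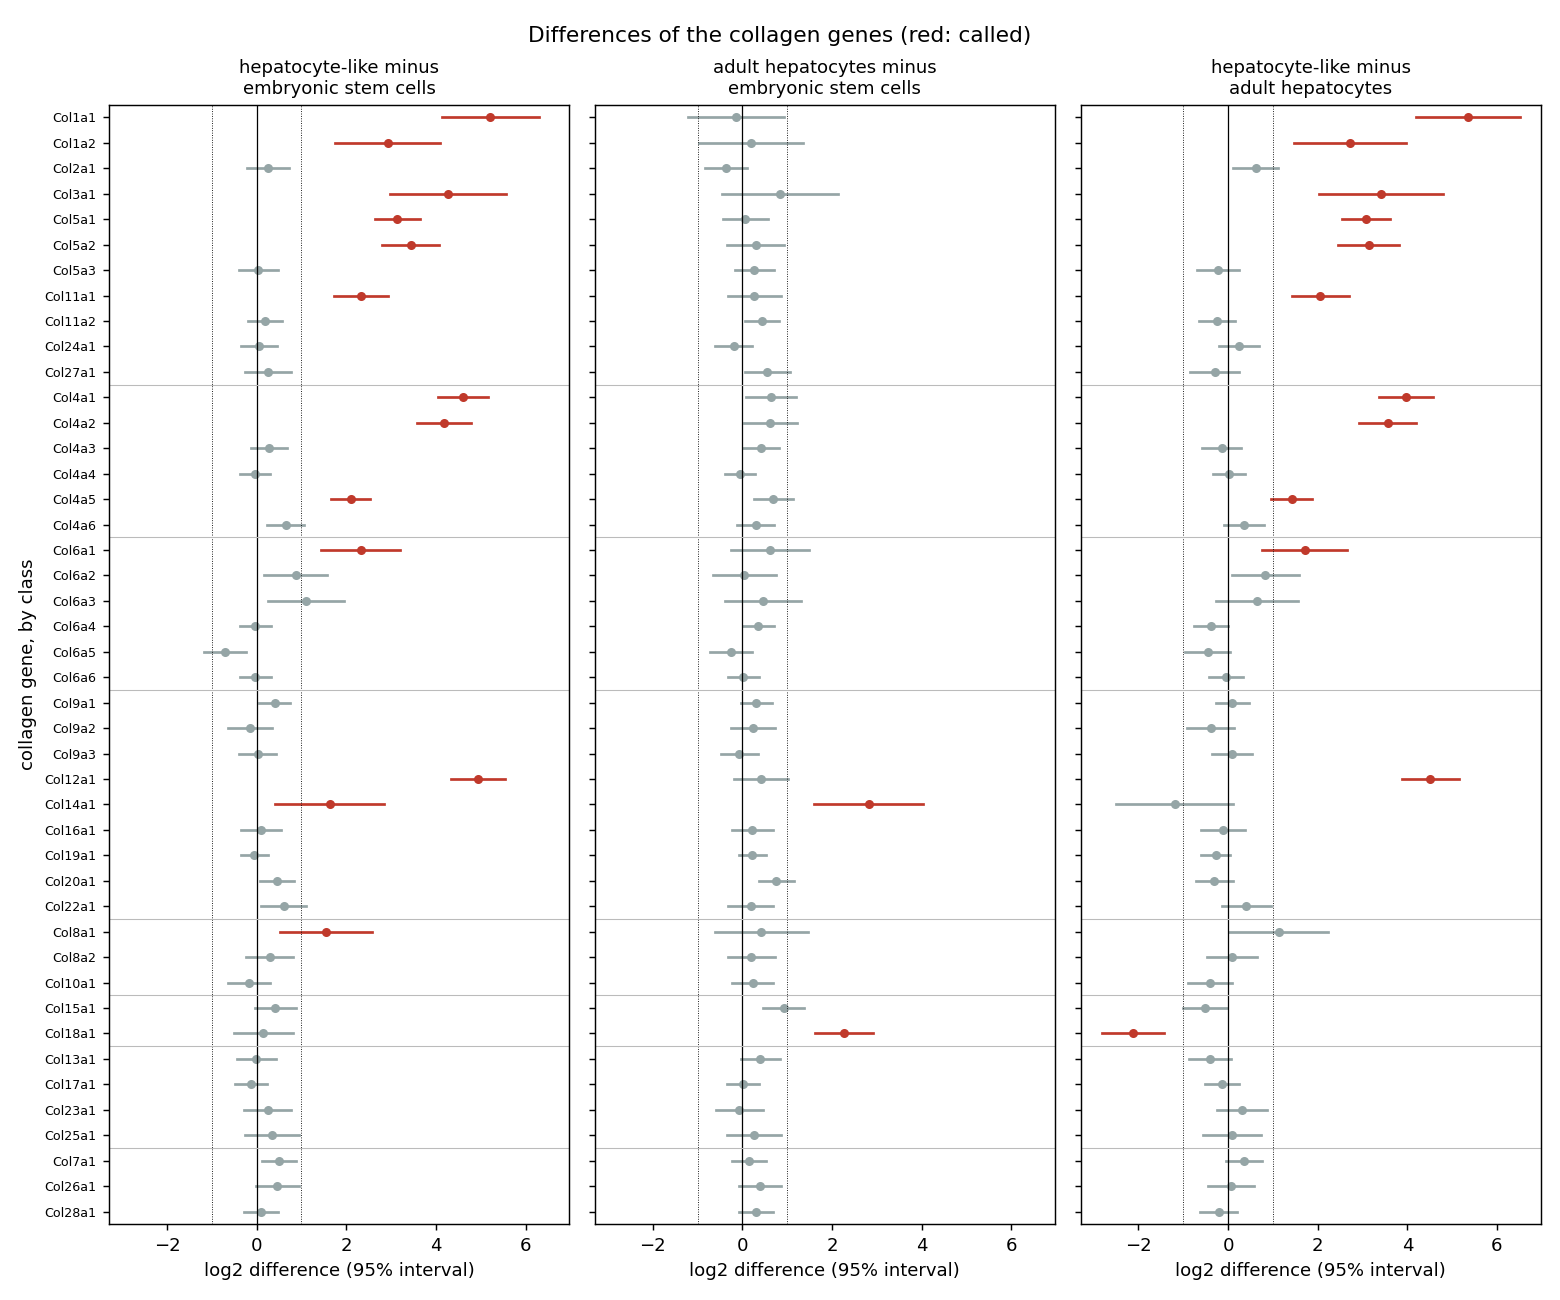
Log2 difference with its 95% interval from limma for each of the 44 collagen genes (rows, by class) in the 3 comparisons (panels). Red marks called genes, and dotted lines a log2 difference of 1 either way. Between hepatocyte-like and embryonic stem cells 13 genes are called higher, between adult hepatocytes and embryonic stem cells only Col14a1 and Col18a1, and between hepatocyte-like cells and adult hepatocytes 11 higher and Col18a1 lower.

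The hepatocyte-like arrays were not alike in their collagens. Of the 13 collagens that rose over embryonic stem cells, 10 had their lowest hepatocyte-like value in replicate 3 (76.9%), against 31.1% of the 1896 other genes that rose. Replicate 1 had the highest value for 8 of them, among these the 5 fibrillar genes other than Col11a1, and replicate 2 for 5, the type IV chains, Col11a1 and Col8a1. The median range over the 3 arrays was 1.60 for these 13 collagens and 0.82 for the other genes. Both are descriptions of these arrays. The mean level of 16 stellate cell and fibroblast markers without collagens was 8.16, 7.54 and 6.93 in replicates 1, 2 and 3, against 6.10 to 6.18 in adult hepatocytes and 5.51 to 5.62 in embryonic stem cells. That of the 11 fibrillar genes was 8.26, 7.58 and 6.77, against 5.50 to 5.88 and 5.42 to 5.71. That of the hepatocyte markers ran the other way, lowest in replicate 1 and highest in replicate 3, but not every member did. Alb read 4.85, 5.14 and 10.80 and Serpina1c 3.46, 4.12 and 8.08 in replicates 1, 2 and 3. Ttr (9.04, 10.44 and 8.77), Apoa1 (6.95, 7.97 and 6.80) and Fgb (6.67, 7.99 and 6.85) instead peaked in replicate 2. The part of any of these lists in the collagen values was not tested.

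Markers of cells that make collagen were examined beside these values. Dcn and Lum are on both the stellate cell list and the proteoglycan list used below, and Sparc is on the endoderm list and the proteoglycan list. Of the 16 stellate cell and fibroblast markers 8 rose in hepatocyte-like cells over embryonic stem cells and 1 fell. Over all genes 8.61% were higher and 7.35% lower in that comparison. The largest rises were those of Postn (6.88 ± 0.38), a matrix protein of activated fibroblasts, and smooth muscle actin, Acta2 (6.32 ± 0.24). Acta2 read 12.54, 12.57 and 11.44 in hepatocyte-like cells. The vitamin A storing enzyme gene Lrat, typical of quiescent stellate cells, stood at 4.45, 4.66 and 3.97 there, against 7.77, 7.74 and 8.24 in adult hepatocytes and 4.12 to 4.65 in embryonic stem cells. In adult hepatocytes 3 of the 16 rose over embryonic stem cells, Lrat by 3.57 ± 0.21, Reln by 2.66 ± 0.22 and Dcn by 5.16 ± 0.42. Another 3 fell, Vim by 3.04, Ngfr by 2.05 and Des by 1.23. Over all genes 11.0% were higher and 15.6% lower between adult hepatocytes and embryonic stem cells. There 9 of 12 endothelial markers rose, among them the sinusoidal genes Clec4g (4.61 ± 0.16) and Stab2 (3.35 ± 0.20), and Pecam1 fell by 2.23. In hepatocyte-like cells 3 of the 12 rose over embryonic stem cells, including Flt1 (3.47 ± 0.22) and Kdr (2.63 ± 0.24). Another 3 fell, including Eng by 3.76 and Pecam1 by 3.07. Against adult hepatocytes 1 of the 12, Flt1, was higher in hepatocyte-like cells and 7 were lower. Of 12 markers of Kupffer cells and macrophages 10 rose and Cd68 fell by 2.46 in adult hepatocytes over embryonic stem cells. The part of any of these lists in the higher Col14a1 and Col18a1 of adult hepatocytes was not tested. Endoderm cells of the parietal and visceral yolk sac lay down type IV collagen and laminin. Of 16 markers of that endoderm 9 rose in hepatocyte-like cells over embryonic stem cells and 0 fell, beside 8.61% and 7.35% of all genes. Those that rose included Gata6 (4.22 ± 0.35), Lamb1 (3.95 ± 0.21) and Dab2 (3.30 ± 0.20). Sox7 (0.16 ± 0.22), Sox17 (0.51 ± 0.20), Foxa2 (0.63 ± 0.24), Pth1r (0.77 ± 0.20), Lamc1 (0.77 ± 0.21), Amn and Snai1 were not called. Against adult hepatocytes 9 of the 16 were called higher, and the median difference of the list was 1.53. Sox7 and Foxa2 were called lower there, with differences of -1.04 and -1.53. Over all genes 13.9% were higher and 9.12% lower in that comparison. The mean level of the 16 endoderm markers was 8.04, 7.96 and 7.99 in hepatocyte-like replicates 1, 2 and 3. It was 6.38 to 6.53 in adult hepatocytes and 6.42 to 6.64 in embryonic stem cells. That mean differed less between the replicates than the mean of the fibrillar genes did, but its members moved in different directions. Gata6 read 10.54, 9.68 and 8.68 in replicates 1, 2 and 3, while Cubn read 6.05, 5.44 and 7.07 and Thbd 6.62, 6.56 and 7.38. The part of this list in the collagen values was not tested.

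**Figure D4:**
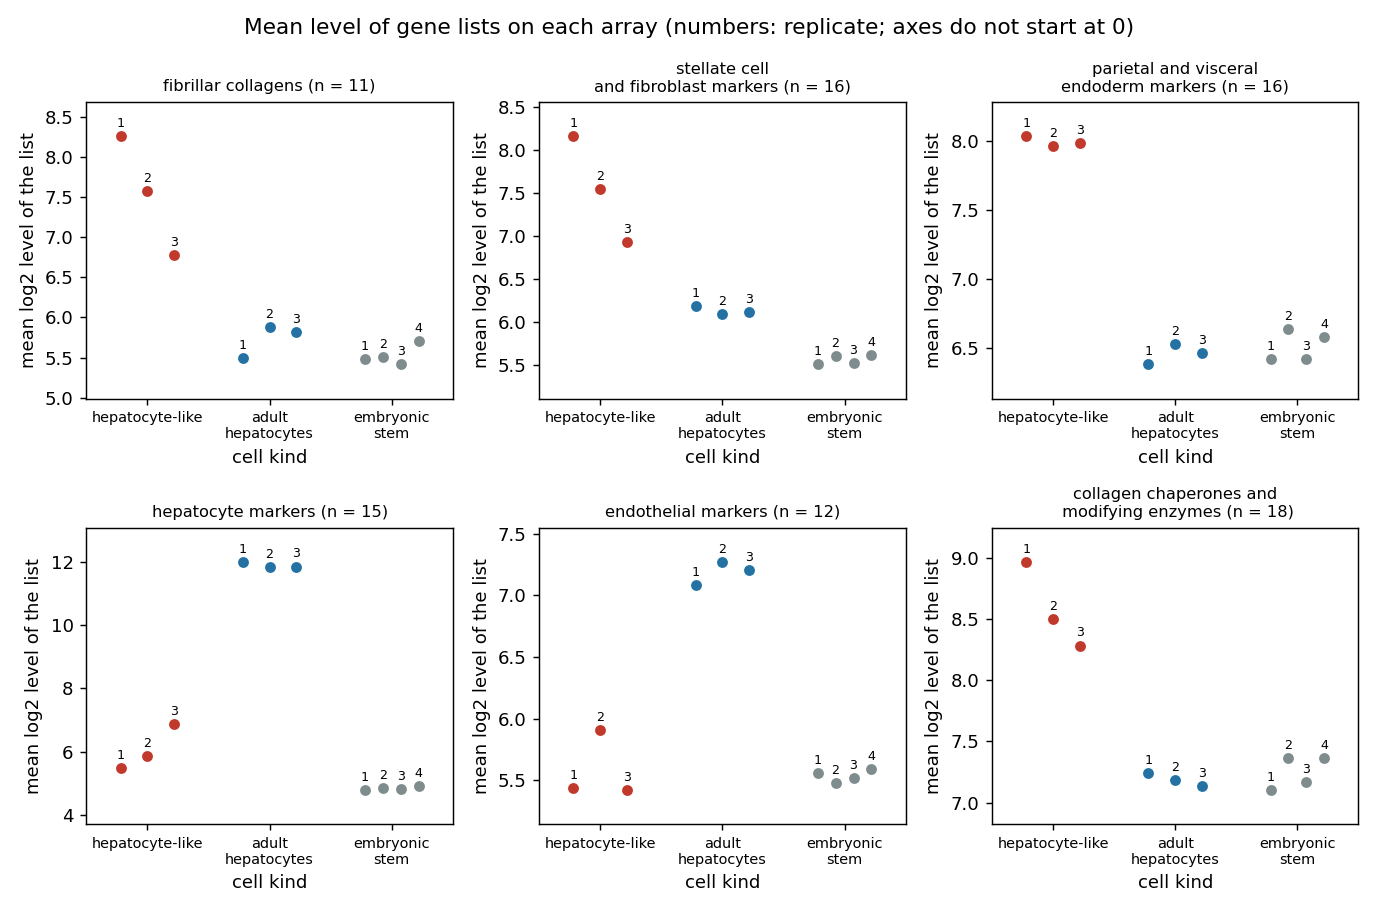
Mean log2 level over a gene list (vertical axis, not starting at 0) on each array (points, numbered by replicate) for 6 lists in hepatocyte-like cells, adult hepatocytes and embryonic stem cells. The means of fibrillar collagens and of stellate cell and fibroblast markers are highest in hepatocyte-like replicate 1 (8.26 and 8.16). They are lowest of the 3 in replicate 3 (6.77 and 6.93). The mean of the endoderm markers lies between 7.96 and 8.04 in all 3, though members such as Gata6 and Cubn differ in their order.

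Part of the machinery that folds, trims and cross-links collagen was also higher in hepatocyte-like cells. Of 18 chaperones and modifying enzymes 9 rose over embryonic stem cells and 0 fell, beside 8.61% of all genes higher and 7.35% lower. The median difference of the 18 was 0.93. The genes that rose included P4ha3 (3.72 ± 0.32) and P4ha2 (3.12 ± 0.28), catalytic chains of prolyl 4-hydroxylase, and the prolyl 3-hydroxylase P3h2 (3.49 ± 0.53). Plod2 (3.05 ± 0.26), which hydroxylates lysines of the telopeptides, was also among them. Plod2 read 10.96, 10.26 and 9.94 in hepatocyte-like cells, against 3.78, 3.84 and 3.96 in adult hepatocytes and 7.77, 6.94, 7.59 and 7.03 in embryonic stem cells. The 3 groups did not overlap, and in adult hepatocytes it fell by 3.47 on the log2 scale relative to embryonic stem cells. The collagen chaperone HSP47, Serpinh1, had 4.41 ± 0.40 more in hepatocyte-like cells relative to adult hepatocytes (adjusted p = 1.86e-06). In adult hepatocytes 3 of these 18 genes rose over embryonic stem cells, including the procollagen export factor Mia3 (2.28 ± 0.17), and 4 fell. Over all genes 11.0% were higher and 15.6% lower in that comparison.

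Of 12 genes of procollagen processing and cross-linking 6 rose and 1 fell in hepatocyte-like against embryonic stem cells, with a median of 1.01. Over all genes 8.61% were higher and 7.35% lower in that comparison. The procollagen C-proteinase Bmp1 rose by 5.21 ± 0.19, the lysyl oxidases Lox by 4.55 ± 0.27 and Loxl1 by 2.38 ± 0.28, and the transglutaminase Tgm2 by 3.03 ± 0.27. Bmp1 and Tgm2 also rose in adult hepatocytes over embryonic stem cells, by 4.12 ± 0.19 and 3.42 ± 0.27. Of 10 small proteoglycans and fibril partners 5 rose, with Bgn at 3.77 ± 0.59 and Dcn at 3.26 ± 0.42. In adult hepatocytes these 2 rose over embryonic stem cells by 5.10 ± 0.59 and 5.16 ± 0.42.

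Against embryonic stem cells, receptors and degrading enzymes were called more often for hepatocyte-like cells, and less often for adult hepatocytes. Of 9 collagen receptors 6 rose in hepatocyte-like over embryonic stem cells and 0 fell, with the integrin chains Itgb1 (3.34 ± 0.15) and Itga2 (3.24 ± 0.15), the discoidin receptor Ddr1 (2.73 ± 0.24) and the endocytic receptor Mrc2 (2.43 ± 0.33). Itga1, which pairs with the beta 1 chain to bind type IV collagen, rose by 3.65 ± 0.41 in adult hepatocytes over embryonic stem cells. It fell by 2.12 in hepatocyte-like cells against adult hepatocytes. Of 14 collagen-degrading enzymes and their inhibitors 7 rose and 0 fell, among them the gelatinase Mmp2 (4.37 ± 0.31), the membrane-bound collagenase Mmp14 (3.76 ± 0.26) and the inhibitors Timp3 (4.67 ± 0.29) and Timp2 (4.25 ± 0.21). Mmp14 was higher in adult hepatocytes as well, by 2.35 ± 0.26 over embryonic stem cells, while Mmp2 and the inhibitor Timp1 fell there by 1.30 and 4.42. Between adult hepatocytes and embryonic stem cells 2 of the 9 receptors were called higher and 0 lower. Among the 14 enzymes and inhibitors 2 were higher and 2 lower. That comparison had 11.0% of all genes higher and 15.6% lower. The shares for hepatocyte-like against embryonic stem cells were 8.61% and 7.35%.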

How the data were processed

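RNA was isolated with TRIzol, cleaned on columns, biotin-labelled and hybridised by the Affymetrix protocol, per the labels' protocols. The values deposited by the authors are log2 levels of 41345 transcript clusters on 10 arrays, and no further normalization was done for the main results. Transcriptome Analysis Console, R 3.3.1, oligo 1.38.0 and RMA are named, without their roles, per the submitters' processing notes. The genome build and the level of summarisation were not stated there.

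Of all clusters, 23521 had 1 symbol in the platform annotation, 1814 had more and 16010 had no symbol. Of 47 collagen clusters with 1 symbol, 3 were second clusters of Col1a2, Col5a1 and Col6a1. A further cluster, shared by Col6a1 and other genes, was left out. All 44 collagens matched RefSeq by Entrez ID and kept their symbols. No filter on low values was applied.

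Group means of all 10 arrays were fitted with limma 3.58.1 in R 4.3.3 (lmFit, eBayes, 2-sided, 7 residual degrees of freedom and a prior of 5.34), and 3 comparisons were drawn from this fit. The 3 groups therefore share 1 estimate of the spread per gene. For some genes the hepatocyte-like arrays vary most, as for Col1a1 (SD 1.54, against 0.22 in adult hepatocytes and 0.11 in embryonic stem cells). For these the shared estimate widens the errors of adult hepatocytes against embryonic stem cells. It narrows those of comparisons with hepatocyte-like cells, whose SEs and p-values may then be too small. The script was tested on simulated data.

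Every collagen could be named. Of other lists, up to 4 genes per comparison with the largest differences were named, and for markers also up to 4 by level. Other genes named (Alb, Nanog, Acan, Comp, Matn1, Lrat, Reln, Stab2, Serpinh1, Loxl1 and Itga1 among them) follow this rule in at least 1 comparison or were chosen after their values were seen. Members and lists were chosen with earlier results of these data known.

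The replicate numbers are shared by the groups. Deviations from the group means of same-numbered arrays correlated at -0.19 to 0.14 across genes, so the numbers were not taken to pair the arrays. Alternatives were quantile normalization, median centring, cyclic loess, a filter on dim genes, the mean over clusters, another variance model, array weights, 2 groups only, the replicate block, other thresholds and each array left out. Figures used Python 3.11.15 and matplotlib 3.10.9.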

Additional observations from a re-analysis of the deposited data

How the results depend on the processing

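The number of collagens called between hepatocyte-like and embryonic stem cells was 13, with 12 under the replicate block, which lost Col14a1. It was 10 with dim genes left out, which left 20 collagens in the test, 15 with array weights and 16 with no limit on the difference. Having no limit added Col4a6 and Col7a1, both higher in hepatocyte-like cells, and Col6a5, which was lower. Leaving out 1 array at a time gave 11 to 15. Between hepatocyte-like cells and adult hepatocytes it was 12, with 10 to 12 under the other settings and 12 to 14 with 1 array left out, and 12 under the replicate block. Between adult hepatocytes and embryonic stem cells it was 2, with 2 to 3 with 1 array left out, 2 under the replicate block and 5 with no limit on the difference, which added Col15a1, Col20a1 and Col4a5. The replicate block changed no other call of a collagen. No difference of a collagen called under any setting changed sign. Centring each array on its median gave 1705 genes higher among 3553 called of all genes between hepatocyte-like and embryonic stem cells, against 1909 among 3540 without it. Without scanner files, dim genes have no tested background, which limits what low levels can show.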
